A study of Homo sapiens with 6 samples.

Results

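The human mitochondrial genome carries 13 mRNA genes and 22 tRNA genes, and these 35 genes are described here by strand, by position and by the counts they gained. They were taken from the deposited table of 22925 genes by their Ensembl identifiers. Of the 35, 33 had a row and all 33 were tested, while the alanine and asparagine tRNA genes MT-TA (ENSG00000210127) and MT-TN (ENSG00000210135) are not analysed here. HT-1080, an established human fibrosarcoma line, had been grown for 48 h in 1% DMSO alone (3 libraries) or in 1% DMSO with 20 μM PhenDC3 (3 libraries). PhenDC3 is a ligand of G quadruplexes, folded structures that guanine-rich DNA or RNA can form. Poly(A) RNA was sequenced. Separate cultures are not named in the labels for the replicates. The p-values therefore reflect only how far these libraries vary, and that variation may be technical. Both groups share the DMSO, and 1 cell line, 1 dose and 1 time were studied.

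Both strands of the mitochondrial genome are transcribed into long precursors that run through many genes. The heavy strand is the template for most of the genes, and the guanine-rich RNA copied from the light strand carries ND6 and a minority of the tRNAs. The tRNAs lie between the other genes like punctuation, and cutting them out frees the mRNAs and rRNAs on either side. Most mitochondrial mRNAs then receive a short poly(A) tail, ND6 mRNA being the known exception, and mature tRNAs receive none. In poly(A) libraries, reads over a tRNA gene can therefore come from the tRNA itself or from a longer RNA that still contains it, and the table cannot tell these apart. In RNA from whole cultures, more mitochondria per cell and more RNA per mitochondrion cannot be told apart either. Nor can a change in the amount of an RNA and a change in its poly(A) tail or capture.

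Strand, gene order, length and sequence were taken from GENCODE release 29 (GRCh38), matched by identifier for all 35 genes. The submitters' notes name hg19, so no coordinates are given. By that annotation 12 mRNA and 14 tRNA genes are heavy-strand genes, meaning that the heavy strand is their template, and ND6 and 8 tRNA genes are light-strand genes. The 2 sets do not overlap in base composition. Guanine made up 6.28% to 19.1% of the RNA of each heavy-strand gene, ATP8 being lowest and MT-TM highest. In the light-strand genes it made up 23.5% to 36.1%, from MT-TP to MT-TQ. The contrast is shown by the 90 bases with the most guanine in ND6 and in CYTB, a light-strand and a heavy-strand mRNA, followed by 4 tRNAs that the results turn on. Capitals mark runs of 3 or more G, and all sequences are from GENCODE release 29, 5′ to 3′ in the sense of the RNA.
ND6, bases 245 to 334: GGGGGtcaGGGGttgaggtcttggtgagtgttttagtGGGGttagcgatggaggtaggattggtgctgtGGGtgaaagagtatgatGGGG
CYTB, bases 422 to 511: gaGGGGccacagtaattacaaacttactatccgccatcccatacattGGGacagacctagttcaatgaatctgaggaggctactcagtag
MT-TV: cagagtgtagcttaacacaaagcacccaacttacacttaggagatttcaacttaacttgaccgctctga
MT-TE: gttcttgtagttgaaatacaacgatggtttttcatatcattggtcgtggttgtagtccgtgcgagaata
MT-TP: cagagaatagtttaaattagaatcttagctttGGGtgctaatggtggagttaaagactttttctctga
MT-TS2: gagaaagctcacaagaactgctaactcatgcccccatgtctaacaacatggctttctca

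Depth and the label were checked before the members were read. The deposited values are read counts divided by a size factor per library. Turned back into whole reads, they came to 12574952 to 14292987 reads in DMSO and 7371056 to 9386691 in PhenDC3, so depth moved with the group. DMSO replicate 3 differed most from its own group, its counts giving chi-square over degrees of freedom values of 6.47 and 6.99 with the other DMSO libraries, where other pairs within a group gave 1.40 to 2.50. All 9 mesenchymal markers had a row, VIM, CD44 and SPARC with the highest counts, and 3 were higher and 5 lower in PhenDC3, where 29.2% of all tested genes were higher and 30.4% lower in limma. Summed, they ranged from 55819 to 60063 normalized counts among DMSO libraries and from 39120 to 39831 among PhenDC3 libraries. Of 15 epithelial, endothelial and leukocyte markers, 8 had no row in the table, among them EPCAM, CDH1, PECAM1 and PTPRC, and the highest, EGFL7, stood at 257 ± 40.04 (SD, n = 3) normalized counts in DMSO and 280.4 ± 41.2 in PhenDC3. The summed epithelial markers were 59.3 to 72.4 in DMSO and 74.8 to 83.4 in PhenDC3, the endothelial ones 226 to 304 and 238 to 321, and the leukocyte ones 54.5 to 62.6 and 22.3 to 41.7. Of the 5 that could be tested, ELF3 (0.26 to 10.6) and CD68 (5.98 to 15.4) were higher, LAPTM5 (50.5 to 14.4) was lower, and CLDN4 and EGFL7 did not pass. ELF3 reached the mean of 5 needed for testing only through its PhenDC3 libraries, so it had to be higher. The part of all these markers in the results was not tested.

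Among the mRNAs, 9 of 13 rose with PhenDC3 and none fell, while all tRNAs that could be tested rose on both strands. Calls are at an adjusted p under 0.05 in limma on log2(value + 1), adjusted over the 16482 genes whose mean over all libraries was at least 5. In that fit 59.6% of all tested genes were called, 29.2% higher and 30.4% lower, with a median log2 change of -0.02. By edgeR's quasi-likelihood test on recovered reads 63.0% were called (30.9% higher, 32.1% lower), with 10 mRNAs higher. By DESeq2 39.0% were called (19.7% higher, 19.3% lower), with 9 mRNAs higher. By complex, 6 of 7 mRNAs of complex I, 2 of 3 of complex IV, 0 of 2 of complex V and the single one of complex III were higher. The median log2 change was 0.91 over the 13 mRNAs and 3.13 over the 20 tRNAs tested. Values below are normalized counts in replicate order, then mean ± SD with n = 3. Folds are ratios of group means, and log2 changes are on the log2(value + 1) scale, which understates the change of low genes.

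CYTB (ENSG00000198727), the mitochondrially encoded subunit of respiratory complex III, had the largest change of any mRNA. Its DMSO libraries stood at 22613, 20757 and 22419 and its PhenDC3 libraries at 121530, 118873 and 120575. The groups were far apart, at 21930 ± 1020 against 120326 ± 1346, or 5.49-fold (limma, log2 change 2.46, SE 0.06, adjusted p = 1.87e-17). ND5 (ENSG00000198786), a subunit of complex I, the enzyme that takes electrons from NADH, followed closely. It read 27373, 29660 and 28383 in DMSO and 134242, 135598 and 135236 in PhenDC3, a rise of 4.74-fold. The groups were as clearly apart as those of CYTB.

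ND6 (ENSG00000198695), also of complex I, is the only mRNA of the light strand. It stood at 6434, 7388 and 6754 in DMSO and at 33028, 33176 and 32349 in PhenDC3. This rise of 4.79-fold was close to that of ND5, which ends beside it on the other strand (limma, log2 change 2.26 for ND6 and 2.25 for ND5, SE 0.06 for each). The log2 ratio of ND6 to ND5 reads was -2.06 ± 0.044 in DMSO and -2.04 ± 0.022 in PhenDC3, a difference of 0.02 (exact permutation test over 6 libraries, two-sided, p = 0.7). Against the sum of the 12 heavy-strand mRNAs, ND6 gained, the log2 ratio moving from -5.66 ± 0.15 to -4.52 ± 0.026, with no overlap between the groups. The exact permutation test gave p = 0.1, the smallest that 3 libraries against 3 allow. The sources used here do not say whether counting separated the strands, so reads of ND6 and of RNA running opposite to it cannot be told apart.

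ND1 (ENSG00000198888), the complex I gene nearest to the rRNA genes, rose 3.85-fold. Its libraries read 16273, 14886 and 17969 in DMSO and 66095, 60222 and 62812 in PhenDC3. The next mRNA along the strand, ND2 (ENSG00000198763), also of complex I, did not pass. ND2 stood at 35492, 31758 and 36356 in DMSO and at 36934, 35398 and 36049 in PhenDC3, and the groups overlapped. The log2 ratio of ND1 to ND2 within a library moved from -1.08 ± 0.056 to 0.8 ± 0.036, so ND1 was below ND2 in every DMSO library and above it in every PhenDC3 library.

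The catalytic core of cytochrome oxidase, complex IV, came next. COX1 (ENSG00000198804) rose 2.15-fold, from 51182, 48404 and 49834 to 107842, 106369 and 107775. COX2 (ENSG00000198712) rose 1.73-fold, from 26671, 26707 and 29300 to 49317, 46681 and 47025. The third subunit, COX3 (ENSG00000198938), did not pass, although its groups did not overlap, at 47208, 45351 and 51101 against 52836, 51397 and 52886 (limma, log2 change 0.13, adjusted p = 0.0716). Its 95% interval on the log2 scale ran from 0.0034 to 0.26. Among all tested genes, 31.5% had PhenDC3 libraries all above the DMSO libraries.

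The genes of ATP synthase, complex V, were at nearly the same level in both groups. ATP6 (ENSG00000198899) read 32684, 28943 and 32961 in DMSO and 32875, 34882 and 33848 in PhenDC3. ATP8 (ENSG00000228253) read 10424, 9254 and 9258 in DMSO and 9322, 10635 and 9809 in PhenDC3. Their log2 changes were 0.11 (95% interval -0.03 to 0.24) and 0.04 (-0.09 to 0.18). ND2 had 0.07 (-0.06 to 0.20). These intervals hold small changes in either direction. The 4 mRNAs that did not pass (ND2, ATP8, ATP6 and COX3) take a negative sign, uncalled, when each library is scaled to its total reads, which shifts the median of all genes to -0.18. Without DMSO replicate 3, COX3, ATP6 and ND2 passed, with log2 changes of 0.18, 0.14 and 0.11 (limma, adjusted p = 0.000505, 0.0136 and 0.0499).

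ND3 (ENSG00000198840), a short complex I gene after COX3, was 1.15-fold higher and just passed (limma, log2 change 0.21, adjusted p = 0.0145). Its groups overlapped, at 9548, 9353 and 11192 against 11546, 12353 and 10826. The call was lost without DMSO replicate 1 (adjusted p = 0.0557), DMSO replicate 2 (0.0806) or PhenDC3 replicate 2 (0.0992). ND4L (ENSG00000212907) and ND4 (ENSG00000198886), complex I genes that overlap by 7 bases and are known to share an mRNA, rose together. ND4L went from 9151, 9241 and 6934 to 15311, 15834 and 16136, or 1.87-fold. ND4 went from 63914, 56404 and 59410 to 114873, 119200 and 122274, or 1.98-fold. Within a library, the log2 ratio of ND4L to ND4 was -2.84 ± 0.25 and -2.91 ± 0.0073 (exact permutation, p = 0.7). ATP8 and ATP6, the other pair known to share an mRNA, overlap by 46 bases and had a log2 ratio of -1.71 ± 0.11 and -1.77 ± 0.054 (exact permutation, p = 0.4). No shift within either pair was detectable, and the smallest p possible was 0.1 (exact permutation).

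**Figure D1:**
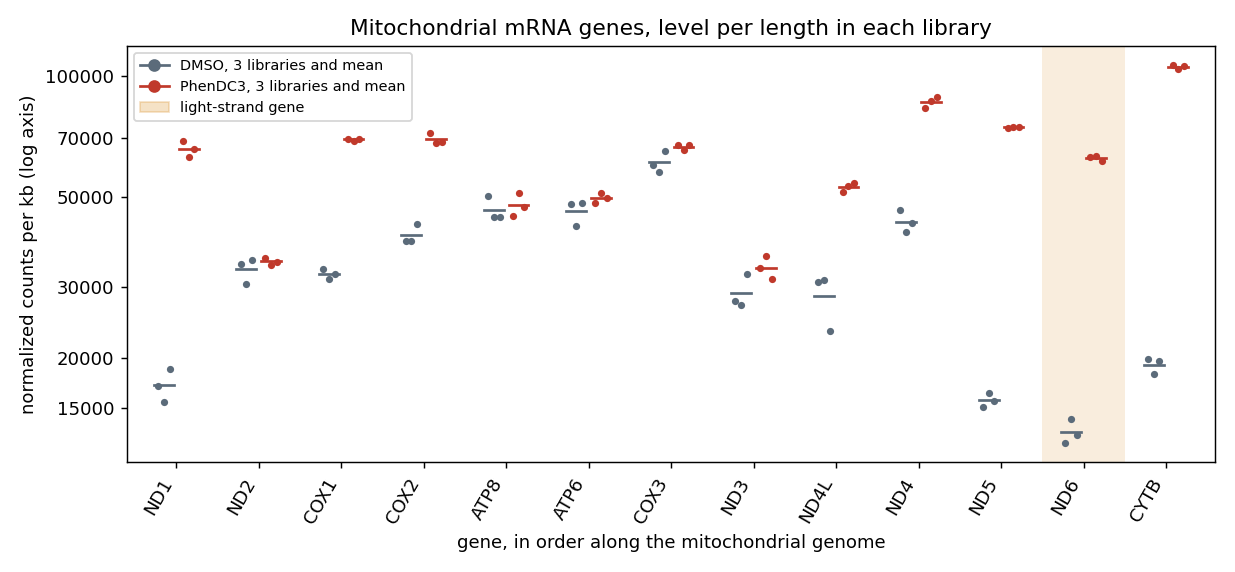
Normalized counts per kilobase of gene (log axis) of the 13 mitochondrial mRNA genes in genome order, with 1 point per library and a bar at the mean of the 3 DMSO (grey) and 3 PhenDC3 (red) libraries; the shaded gene, ND6, is on the light strand. ND1, ND5, ND6 and CYTB are lowest in DMSO and far higher in PhenDC3, while ND2, ATP8, ATP6 and ND3 overlap between the groups.

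Read by position, the mRNA changes were not even along the heavy strand. They were large at the ends, in ND1 (log2 change 1.95) and in ND5 and CYTB (2.25 and 2.46). In the middle, the 4 consecutive mRNAs ATP8, ATP6, COX3 and ND3 had 0.04 to 0.21. Between these lay COX1 and COX2 on one side, at 1.11 and 0.79, and ND4L and ND4 on the other, at 0.91 and 0.99. ND2 broke the order, lying between ND1 and COX1 with 0.07. Across the 12 heavy-strand mRNAs the change was described only loosely by gene order (Pearson's r 0.3, Spearman's rho 0.4, n = 12 genes that share libraries and precursor). Gene length gave 0.61 and 0.66 across the same genes, also as a description. Between ND5 and ND4, which only 3 tRNA genes separate, the log2 ratio went from -1.07 ± 0.15 to 0.19 ± 0.04, and the groups did not overlap. This restates their separate changes given above.

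Per length, the mRNAs that were lowest in DMSO had the largest log2 changes. Normalized counts per kilobase in DMSO were 13064 for ND6, 15713 for ND5, 17130 for ND1 and 19220 for CYTB, the 4 lowest of 13, and 61080 for COX3, the highest. In PhenDC3, CYTB was highest at 105456 per kilobase and ND3 lowest at 33454. The highest mRNA stood 4.11 to 5.07 times above the lowest in the DMSO libraries and 3.07 to 3.38 times in the PhenDC3 libraries. Across the 12 heavy-strand mRNAs, level per kilobase in DMSO and log2 change had a Pearson's r of -0.77 and a Spearman's rho of -0.77. The DMSO values enter both measures, and the genes share libraries and precursor, so this is a description.

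**Figure D2:**
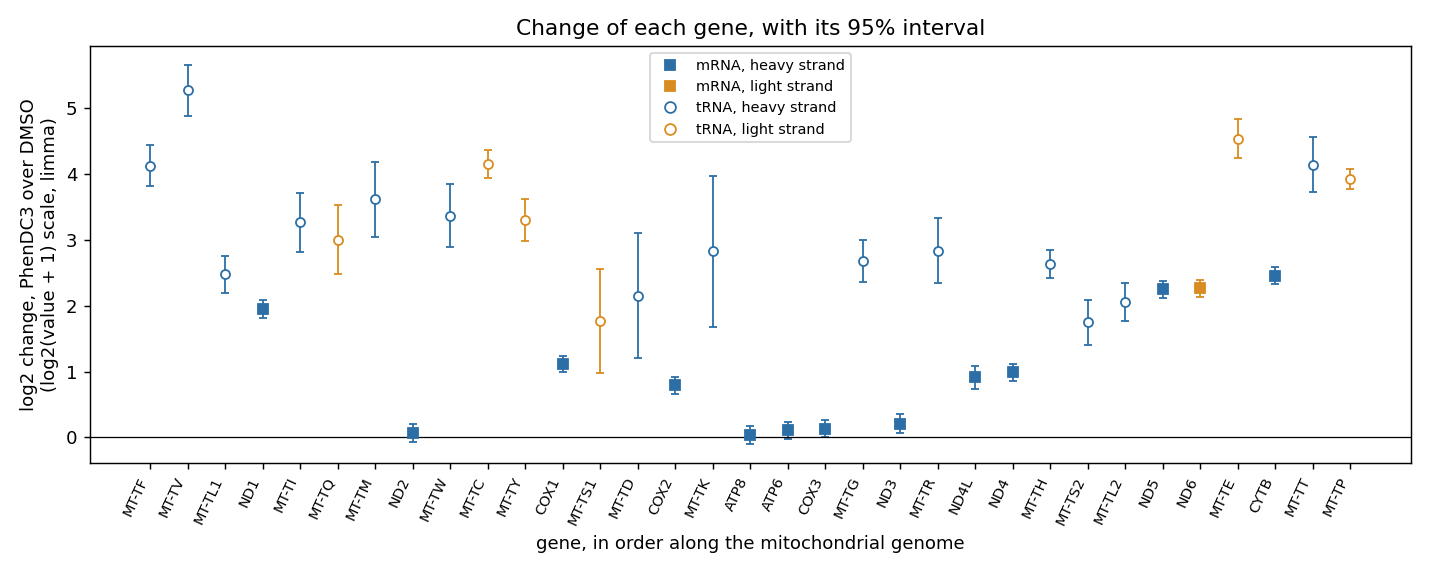
Log2 change of PhenDC3 over DMSO, on the log2(value + 1) scale, of the 33 tested genes in their order along the mitochondrial genome, with 95% intervals from limma; squares are mRNAs, open circles tRNAs, blue the heavy strand and orange the light strand. ATP8, ATP6, COX3 and ND3 sit at 0.04 to 0.21, while every tRNA lies at 1.75 or above.

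In absolute terms, the mRNAs together went from 352981 ± 12965 to 784656 ± 3615 normalized counts, a gain of 431675. ND5 gained 106553 ± 776 (SE) and CYTB 98396 ± 975, together 47.5% of the mRNA gain. With ND4, COX1 and ND1, which gained 58873, 57522 and 46667, these genes made up 85.3% of it. ND6 gained 25992 and COX2 20115. The middle genes ATP8, ATP6, COX3 and ND3, with ND2, gained 10238 in all, or 2.37%. The makeup of mitochondrial mRNA changed with this. ND5 and CYTB took 8.07% and 6.21% of its counts in DMSO and 17.2% and 15.3% in PhenDC3, while COX3 went from 13.6% to 6.67% without losing normalized counts. Scaled to total reads, COX3 had a log2 change of -0.035, which was not called.

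**Figure D3:**
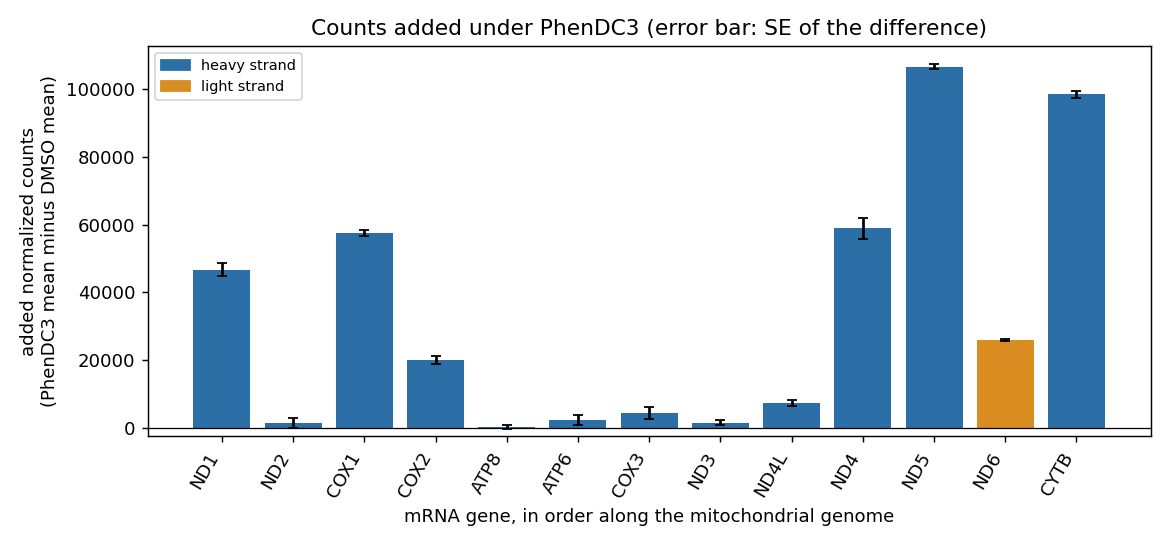
Normalized counts added under PhenDC3 (PhenDC3 mean minus DMSO mean, 3 libraries each, error bars the SE of the difference) for the 13 mRNA genes in genome order, blue for the heavy and orange for the light strand. ND5 and CYTB add 106553 and 98396, and ATP8 adds 277.

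The mRNAs held 3.59% ± 0.14 of all reads in DMSO and 7.12% ± 0.046 in PhenDC3. For comparison, the 2 mitochondrial rRNA genes gained 879399 normalized counts, or 66.6% of the gain of the whole mitochondrial genome, the mRNAs 32.7% and the tRNAs 0.73%. MT-RNR1 and MT-RNR2, which lie next to MT-TF (ENSG00000210049) and MT-TV (ENSG00000210077), had log2 changes of 6.05 and 4.69, larger than any mRNA.

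The tRNA genes were few in reads and large in change. They held 0.0103% ± 0.0016 of reads in DMSO and 0.0961% ± 0.0047 in PhenDC3, and together went from 1015 ± 163 to 10603 ± 587 normalized counts, 10.4-fold, against 2.22-fold for the mRNAs. The log2 ratio of tRNA to mRNA reads moved from -8.45 ± 0.28 to -6.21 ± 0.079, a difference of 2.24, with no overlap between the groups (exact permutation, p = 0.1). The 20 tRNA genes were all called higher, where 29.2% of all tested genes were, and in all 20 the groups did not overlap, where 31.5% of all tested genes had PhenDC3 libraries above DMSO libraries. MT-TK (ENSG00000210156) and MT-TD (ENSG00000210154) had DMSO means under 5 and entered the test through their PhenDC3 values, so they had to be higher.

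MT-TV, the valine tRNA between the rRNA genes, rose most of all, from 20.2, 11.6 and 18.6 to 865, 518 and 667 normalized counts (limma, log2 change 5.27, SE 0.19, adjusted p = 6.73e-15). It rested on 68 DMSO reads and 1587 PhenDC3 reads. Scaled by size factors their ratio was 41.3, and its exact 95% interval of 32.4 to 53.4 covers counting error only. MT-TF, the phenylalanine tRNA that opens the heavy-strand transcript, rose 17.8-fold, from 18.7, 30.2 and 22.8 to 444, 408 and 425. The leucine tRNA MT-TL1 (ENSG00000209082), which follows MT-RNR2, rose less, 5.64-fold, from 47.4 ± 7.41 to 267 ± 24.9. Relative to MT-RNR1, MT-TV reads had a log2 ratio of -8.40 ± 0.50 in DMSO and -9.10 ± 0.37 (exact permutation, p = 0.2).

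Heavy-strand tRNAs rose also beside mRNAs that changed little. MT-TG (ENSG00000210164), the glycine tRNA between COX3 and ND3, rose 6.26-fold, from 64.6, 113 and 110 to 594, 649 and 559. MT-TR (ENSG00000210174), for arginine, between ND3 and ND4L, rose 7.93-fold, from 8.56, 10.8 and 8.96 to 97.04, 71.5 and 56.4. COX3 and ND3 themselves were 1.09- and 1.15-fold higher, while ND4L rose 1.87-fold and was called higher. On either side of ND2, MT-TM (ENSG00000210112), the methionine tRNA, rose 14.7-fold and MT-TW (ENSG00000210117), for tryptophan, 10.96-fold. MT-TI (ENSG00000210100), for isoleucine, lies between MT-TQ (ENSG00000210107) and ND1, an mRNA that itself rose 3.85-fold. MT-TI rose 10.1-fold.

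The cluster of MT-TH (ENSG00000210176), MT-TS2 (ENSG00000210184) and MT-TL2 (ENSG00000210191), for histidine, serine and leucine, lies between ND4 and ND5. MT-TH rose 6.25-fold and MT-TL2 4.10-fold. MT-TS2 was among the least changed tRNAs, from 80.2, 126 and 160 to 400.01, 433 and 361 (limma, log2 change 1.75, SE 0.16, adjusted p = 1.61e-08). Further along, MT-TT (ENSG00000210195), the threonine tRNA after CYTB, rose 17.5-fold, from 14.8, 33.3 and 28.3 to 486, 448 and 398.

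On the light strand, MT-TE (ENSG00000210194), the glutamate tRNA between ND6 and CYTB, had the largest change. It rose 23.2-fold, from 38.9, 65.7 and 46.9 to 1333, 1027 and 1160 (limma, log2 change 4.54, SE 0.14, adjusted p = 1.05e-15). Against ND6, its neighbour on that strand, the log2 ratio of reads went from -7.12 ± 0.28 to -4.82 ± 0.19, with no overlap. MT-TP (ENSG00000210196), the proline tRNA nearest to the light-strand promoter, had the highest level per kilobase of the tRNAs in both groups. It went from 226, 264 and 259 to 3758, 3896 and 3737, a gain of 3547 normalized counts, or 37.00% of the gain of all tRNAs. Beside MT-TT, which lies next to it on the heavy strand, its log2 ratio was 3.37 ± 0.5 in DMSO and 3.10 ± 0.14 in PhenDC3 (exact permutation, p = 0.6).

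MT-TC (ENSG00000210140) and MT-TY (ENSG00000210144), the cysteine and tyrosine tRNAs, overlap by 1 base in the light-strand cluster between ND2 and COX1. MT-TC rose 18.1-fold, from 41.2, 45.6 and 40.0 to 808, 755 and 737. MT-TY rose 10.3-fold, from 26.5 ± 2.42 to 273 ± 51.9. MT-TQ, for glutamine, which overlaps MT-TI by 3 bases on the other strand, rose 9.22-fold from 6.24 ± 0.75. The light-strand serine tRNA MT-TS1 (ENSG00000210151), between COX1 and MT-TD, had a log2 change close to that of MT-TS2, and which of them was smaller turned with the library left out and with the pseudocount. It went from 7.004, 5.41 and 4.83 to 29.6, 32.8 and 10.5 (limma, log2 change 1.77, SE 0.38, adjusted p = 0.000459).

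MT-TD and MT-TK, on either side of COX2, had the fewest reads. MT-TD, for aspartate, had 13 reads in all DMSO libraries and 43 in PhenDC3, and MT-TK, for lysine, 2 and 23. The ratio for MT-TK was 20.3 with an exact 95% interval of 5.02 to 178, so its size is poorly known.

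**Figure D4:**
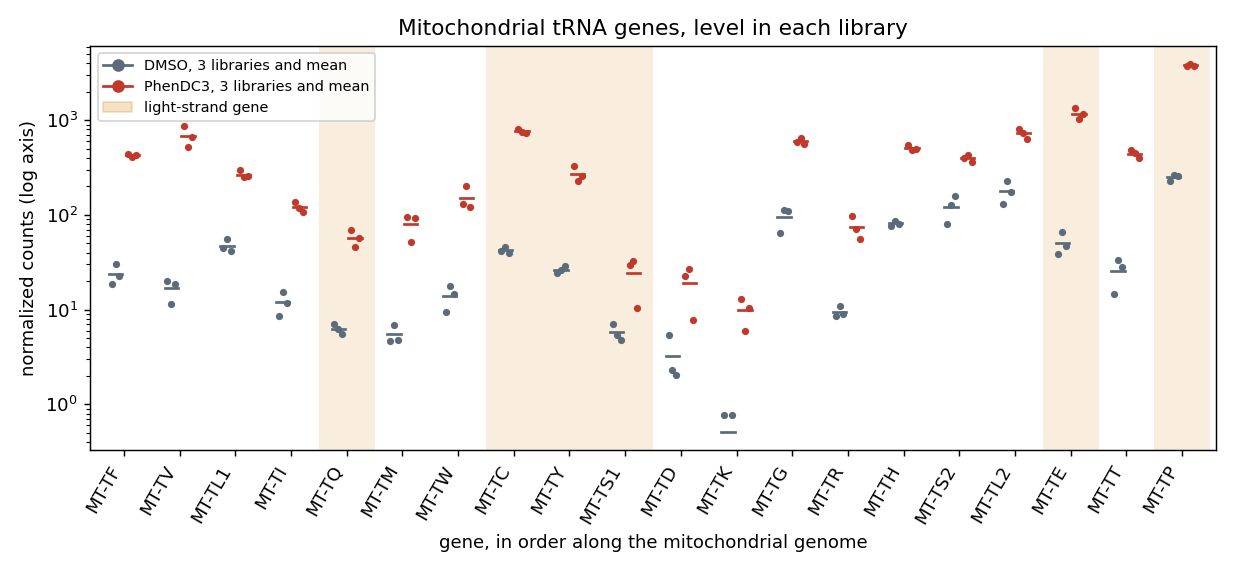
Normalized counts (log axis) of the 20 tRNA genes with a row, in genome order, with 1 point per library and a bar at the mean of the 3 DMSO (grey) and 3 PhenDC3 (red) libraries; shaded genes are on the light strand, and 1 DMSO library with no MT-TK read has no point. All PhenDC3 libraries lie above all DMSO libraries for each gene, and MT-TP is highest in both groups.

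Summed by the annotated strand of the gene, counts over light-strand tRNA genes gained more than those over heavy-strand ones. As for ND6, the strand setting of the counting is unknown, so reads of RNA running opposite to a tRNA gene cannot be told apart from its own, and the sums are of genes, not of RNA of a known strand. The 6 light-strand tRNA genes with a row went from 381 ± 34.7 to 6091 ± 204 normalized counts, 16.0-fold, and the 14 heavy-strand ones from 635 ± 129 to 4512 ± 385, 7.11-fold. Reads of light-strand over heavy-strand genes had a log2 ratio of -0.51, -0.83 and -0.82 in DMSO and 0.36, 0.44 and 0.51 in PhenDC3, so reads of heavy-strand tRNA genes were in the majority in every DMSO library and reads of light-strand ones in every PhenDC3 library. The difference of 1.16 reached the smallest p that 3 against 3 allow (exact permutation, two-sided, p = 0.1). MT-TP, MT-TE and MT-TC dominate the light-strand sum. As a mean of log2 values over genes, in which each gene counts alike, the difference was 0.36, again without overlap. The log2 changes of single genes overlapped widely between the strands, 1.77 to 4.54 on the light strand and 1.75 to 5.27 on the heavy strand, with medians of 3.62 and 2.83. The heavy-strand median and mean of log2 values include MT-TD and MT-TK, which had to be higher to be tested. Of 19 such per-library values, 14 gave an exact permutation p = 0.1, or 0.136 after Benjamini-Hochberg adjustment over the 19.

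Guanine content separated the strands. ND6 held 19 runs of 3 or more G, and no other mRNA held more than 5. GGG was found in 7 of 8 light-strand and 2 of 14 heavy-strand tRNAs, and in 11 of 13 mRNAs. Of annotated human transcripts, 61.5% to 68.9% held GGG in their first bases at the tRNAs' lengths, and 92.2% to 100% at the mRNAs' lengths. MT-TV and MT-TE, the tRNAs that rose most on each strand, held none. The tested tRNAs with GGG were MT-TF, MT-TQ, MT-TM, MT-TC, MT-TY, MT-TS1 and MT-TP. Their log2 changes were 4.13, 3.00, 3.62, 4.15, 3.30, 1.77 and 3.93, in that order. Tested tRNAs without GGG ran from 1.75 in MT-TS2 to 5.27 in MT-TV. A link between GGG and the change was not tested. A longer motif, 4 tracts of at least 3 G each separated by 1 to 7 bases of any kind, was found in the RNA of none of the 35 genes. On the complementary strand it was found in 4, ND1, ND3, ND5 and CYTB. At the same lengths, 1.14% to 14.8% of annotated transcripts held that motif, and 0.91% to 20.8% held it on the complementary strand. Guanine share and log2 change had a Pearson's r of 0.44 and a Spearman's rho of 0.53 across all 13 mRNAs, and 0.20 and 0.43 across the 12 of the heavy strand. For runs of 3 or more G per kilobase the values over the 13 mRNAs were 0.44 and 0.57. Across the 20 tRNAs of both strands, guanine share gave 0.12 and 0.32. These are descriptions over genes that share libraries, and the tRNAs of each strand were not examined alone.

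Several mitochondrial genes have near-identical nuclear copies, and reads can be divided between a gene and its copy or be dropped where they match both. Of 35 copies with a row, 12 were tested, 9 being higher and none lower, where 29.2% of all tested genes were higher and 30.4% lower. Not all 12 were near-identical, as identity over the aligned bases ran from 76.3% to 99.4%. Of the 12, 4 passed the filter on low values only through their PhenDC3 libraries. These could not be lower, and most of them were among the 9 higher. The most abundant, MTCO1P12 on chromosome 1, is 98.6% identical to COX1 over 1543 aligned bases. It went from 3427, 3470 and 3536 to 8114, 7418 and 7805, and so rose 2.24-fold beside the 2.15-fold of COX1. MTCO3P12, also on chromosome 1 and 98.2% identical to COX3 over 547 bases, did not pass, as COX3 did not. It stood at 2657 ± 183 and 2869 ± 89.1, or 1.08-fold higher beside 1.09-fold. On chromosome 5, MTND4P12 was 1.84-fold higher beside 1.98-fold for ND4, and MTND6P4 was 5.20-fold higher beside 4.79-fold for ND6. MTATP6P1, singled out after its values were seen, was higher where ATP6 did not pass, at 16.0 ± 2.55 and 26.5 ± 1.73. MTCO1P12 and MTCO3P12 stood at 6.98% and 5.55% of their mitochondrial genes in DMSO and at 7.25% and 5.48% in PhenDC3. The absolute levels of the mitochondrial mRNAs are uncertain by what such copies took or removed, and that part was not tested.

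**Figure D5:**
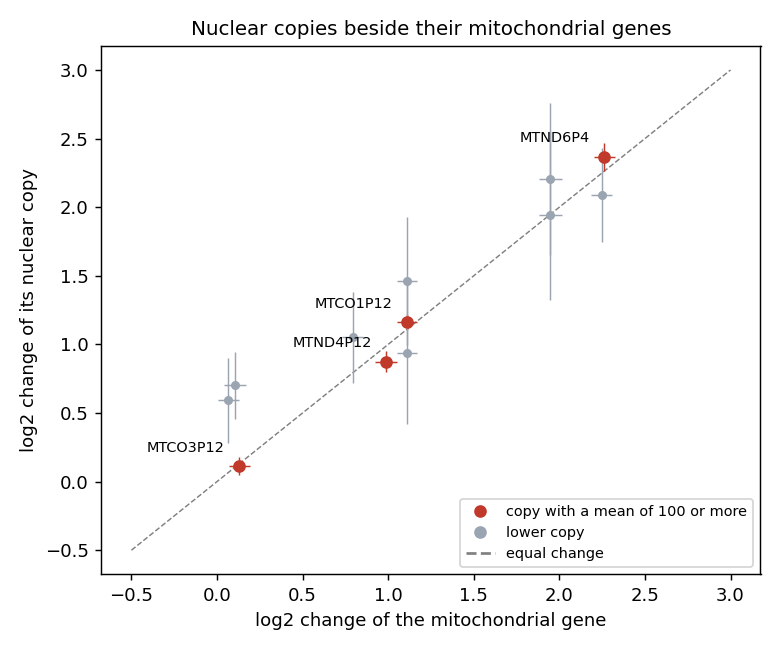
Log2 change of 12 tested nuclear copies (vertical axis) against that of the mitochondrial gene each copies (horizontal axis), both from limma with SE bars. Red copies have a mean of 100 or more normalized counts and the dashed line is equal change. MTCO3P12, MTND4P12, MTCO1P12 and MTND6P4 lie close to the line, at 0.11, 0.87, 1.16 and 2.37.

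Nuclear genes for mitochondrial transcription, RNA processing and RNA turnover moved in both directions. Of 40 listed and tested, 7 were higher and 16 lower, with a median log2 change of -0.05 against -0.02 for all tested genes. Over all tested genes 29.2% were higher and 30.4% lower. POLRMT, the mitochondrial RNA polymerase, stood at 571 ± 59.5 and 616 ± 55.6 normalized counts and did not pass (limma, log2 change 0.11, adjusted p = 0.298). TFAM, which packages mitochondrial DNA and opens its promoters, stood at 1561 ± 17.5 and 1426 ± 104 (log2 change -0.13, adjusted p = 0.0938). LRPPRC and SLIRP, partners that bind and stabilize mitochondrial mRNAs, moved apart. LRPPRC was 1.21-fold higher, and SLIRP fell from 680 ± 84.3 to 367 ± 10.5. TFB1M, a methyltransferase of the small rRNA, fell from 216 ± 6.71 to 72.3 ± 4.47, the largest log2 change of the list at -1.57. ANGEL2, an RNA phosphatase, fell from 404 ± 21.9 to 222 ± 8.67, and TWNK, the helicase of mitochondrial DNA replication, rose 1.69-fold, from 624 ± 11.03 to 1056 ± 77.8. Scaled to total reads, 3 of the list were higher and 22 lower. Under that scaling 10195 of 16573 genes were called and the median log2 change of all genes was -0.18. The split of all genes into higher and lower is not given for it, so these counts have no share beside them.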

How the data were processed

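Per gene, the deposited table has 6 columns of signal: reads that had been divided by a library's own size factor before deposit, as its values show. In each column 100% of values were whole multiples of 1 step (relative tolerance 1e-06), and these multiples were taken as reads. The table also holds the authors' deposited log2 fold change of PhenDC3 over DMSO and the authors' deposited adjusted p-value, missing for 1332 genes. Per the submitters' processing notes, which give no roles, tools were STAR 2.7, TopHat2 2.0.11, featureCounts, DESeq2 1.18.1, Cufflinks 2.2.1, Cuffdiff and CASAVA, and the build was hg19. The sources used here do not give the annotation or the strand setting.

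The main test was limma 3.58.1 (R 4.3.3, variance trend, no replicate block) on log2(value + 1), for genes with a mean of 5 or more, with Benjamini-Hochberg adjustment. edgeR 4.0.16 and DESeq2 1.42.0 were run on recovered reads. Ratios per library were compared by exact two-sided permutation (scipy 1.17.1), and nuclear copies were aligned with Biopython 1.88. Ratios of a single gene to another were not among the planned ratios, and they follow from the changes of both genes. The limma step was tested on simulated data, where it recovered 74.6%, 80.6% and 89.4% of genes changed 1.5-, 2- and 4-fold. There it called 168 of 16493 genes, 5 of them falsely. That share is far below the share called in the data, so the simulation does not cover such a setting. Alternatives covered scaling, filter, pseudocount, thinning and libraries left out. Named genes were all 35 members, the mitochondrial rRNA genes, nuclear copies with a mean of 100 or more, the 4 called factor genes with the smallest adjusted p, POLRMT, TFAM, LRPPRC and SLIRP, and the highest markers. Outside this rule, markers without a row were named, and MTATP6P1 was named after its values were seen. The members and lists were chosen with earlier results of these data known.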

Additional observations from a re-analysis of the deposited data

How the results depend on the processing

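Counts of members called varied little. Under the other settings with all libraries, 8 to 10 mRNAs and 17 to 20 tRNAs were higher and none lower. The lower tRNA counts came from stricter filters or thinned reads, under which fewer were tested. When 1 library was left out, 8 to 12 mRNAs and 19 to 20 tRNAs were higher, 12 without DMSO replicate 3. Over all genes, 8937 to 9646 were called with 1 library left out, against 9818. Of 423 values of single members under the other settings, 413 kept sign and call. Scaled to total reads, ND2, ATP8, ATP6 and COX3 changed sign, to -0.098, -0.12, -0.060 and -0.035, none of them called. The factor list then had 3 higher members, against 7, while the median log2 change of all genes was -0.18. That scaling divides by totals that include the mitochondrial RNA. With 1 library left out, ATP8 ranged from -0.010 (without PhenDC3 replicate 2) to 0.098. COX3 passed in edgeR (log2 change 0.14), when scaled to reads outside the mitochondrial genome (0.15) and in thinned reads (0.15). ND3 was not called when scaled to total reads (0.04), without a variance trend, or at an adjusted p under 0.01; the cause was not tested. The difference in the light to heavy tRNA ratio was 1.10 to 1.26 with 1 library left out and 0.36 as a mean of log2 values. A replicate block gave 10155 called genes over the whole table, 9 mRNAs, 20 tRNAs and no change in a member's call. Residuals of same-numbered libraries correlated at 0.0079, 0.071 and 0.027, so the numbers were not taken as pairs. MT-TK and MT-TD, with 2 and 13 DMSO reads, are limited by depth. To a lesser degree so are MT-TM, MT-TS1 and MT-TQ, with 22, 23 and 25.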
